A study of Rattus norvegicus with 9 samples.

Results

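The genes described here are 9 core genes of mTOR signalling and of the translation control below it: Akt1 and Gsk3b upstream, Tsc1 and Tsc2 as the brake, Mtor, Rptor and Rictor as the kinase and its partners, and Rps6kb1 and Eif4ebp2 as direct outputs. They were chosen by symbol. All 9 were found among the 37991 genes of the count table, and all 9 were among the 18047 genes that passed a filter on low counts. RNA sequencing was done on the medial prefrontal cortex (mPFC) of Wistar Kyoto rats, an inbred strain that serves as a model in depression research, in 3 groups of 3 libraries collected on day 15. Control rats had no treatment. K4 rats received K4, an agent known here only by that code name, intravenously by cannula for 7 days. Ketamine rats received ketamine, an anaesthetic and NMDA receptor blocker with antidepressant action, under the skin for 7 days. Both drugs were then withdrawn for 7 days, so the libraries describe the tissue after a drug-free week. The labels give no dose, vehicle, age or sex. Because the Control rats carried no cannula and received no injection, drug and route of delivery cannot be told apart. The labels do not say that each library came from a separate rat, so the p-values measure only the spread between these libraries.

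mTOR is a protein kinase that works in 2 complexes. In mTORC1, which is built around the Rptor product Raptor, it phosphorylates S6 kinase and the 4E-BP proteins and so promotes cap-dependent translation. In mTORC2, built around the Rictor product, it phosphorylates Akt. Growth factor signals pass through PI3K and Akt to the Tsc1-Tsc2 complex, which keeps the small GTPase Rheb inactive and thereby restrains mTORC1. Akt also inhibits Gsk3b, a kinase that itself can activate Tsc2. In prefrontal cortex this pathway has been studied for its part in synaptic protein synthesis and in the actions of ketamine. Most of that regulation is phosphorylation of proteins, which RNA sequencing does not measure.

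The libraries held 27122207 to 42731004 counts, and the 3 Control libraries were the deepest, with at least 40863756 counts each. The share of counts from 13 mitochondrially encoded genes was 11.6 to 19.0% in Control, 10.4 to 11.4% in K4 and 10.6 to 11.8% in Ketamine, and Control 2 was the highest. Long transcripts took a larger part of the Control libraries. The slope of a gene's log2 deviation was taken on log2 transcript length, that is, per doubling of length. It was 0.04 to 0.07 in Control, -0.02 to 0.00 in K4 and -0.07 to -0.02 in Ketamine. Cortical neuron markers were present, with Slc17a7, the vesicular glutamate transporter of cortical excitatory neurons, at a Control mean of 784 TPM. The 6 excitatory neuron markers summed to 2970 to 3120 CPM (counts scaled to library size) in Control, 3260 to 3300 in K4 and 3240 to 3440 in Ketamine. In that sum every drug library was above every Control library. At an adjusted p under 0.05, 0 of the 6 differed in K4, and 1 was higher and 2 lower in Ketamine. The 6 striatal neuron markers summed to 151 to 171 CPM in Control, 175 to 190 in K4 and 168 to 180 in Ketamine. At an adjusted p under 0.05, 2 of these 6 were higher in K4 and 1 in Ketamine, and 0 were lower. Over all genes 2.27% were higher in K4 and 6.95% in Ketamine. The summed level of 8 astrocyte markers was 2810 to 4080 CPM in Control, 2510 to 2680 in K4 and 2260 to 2430 in Ketamine. Of these 8 markers 3 were lower in K4 and 6 in Ketamine at an adjusted p under 0.05, the threshold for the marker counts that follow too. Over all genes 3.8% were lower in K4 and 9.75% in Ketamine. The astrocyte markers Gfap and Gjb6 and the microglial Aif1 and C1qa had higher mean TPM in both drug groups than in Control. None of these passed the threshold as higher. On the scale of log2(TPM + 1), genes in general were also higher in the drug groups. For genes with a mean TPM of at least 1, the median log2 fold change was 0.16 in K4 and 0.12 in Ketamine. The 6 endothelial and mural cell markers summed to 256 to 340 CPM in Control, 222 to 255 in K4 and 175 to 208 in Ketamine, and 3 of them were lower in each drug group. Of 6 microglial markers 1 was lower in K4 and 3 in Ketamine, and of 5 oligodendrocyte precursor markers 0 and 2. The 6 oligodendrocyte markers summed to 1520 to 2290 CPM in Control, 2090 to 2710 in K4 and 1470 to 1870 in Ketamine, so that K4 and Ketamine did not overlap. The part of these differences in the results below was not tested. In bulk tissue fewer cells of a type and less RNA per cell cannot be told apart.

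Per transcript length, the 9 genes fell into an upper group of 3 and a lower group of 6. In Control the deposited TPM was 90.7 ± 0.942 (SD, n = 3) for Akt1, 81.2 ± 9.65 for Tsc2 and 78.5 ± 12.9 for Gsk3b. Mtor followed at 30.0 ± 4.87, Rps6kb1 at 28.1 ± 4.80, Tsc1 at 22.3 ± 3.18, Eif4ebp2 at 20.8 ± 0.804, Rptor at 20.2 ± 2.65 and Rictor at 18.4 ± 3.44. The ranges of neighbours in this order overlapped in Control except between Gsk3b and Mtor, where the ratio of means was 2.62. The kinase Akt1 and the GTPase-activating subunit Tsc2 thus lay well above the mTOR kinase itself, while Raptor and Rictor mRNA lay near each other at the bottom. In K4 the means ran from 18.4 ± 1.26 TPM for Rictor to 99.9 ± 3.52 for Akt1. In Ketamine they ran from 15.8 ± 0.811 for Rictor to 96.3 ± 4.54 for Akt1.

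**Figure D1:**
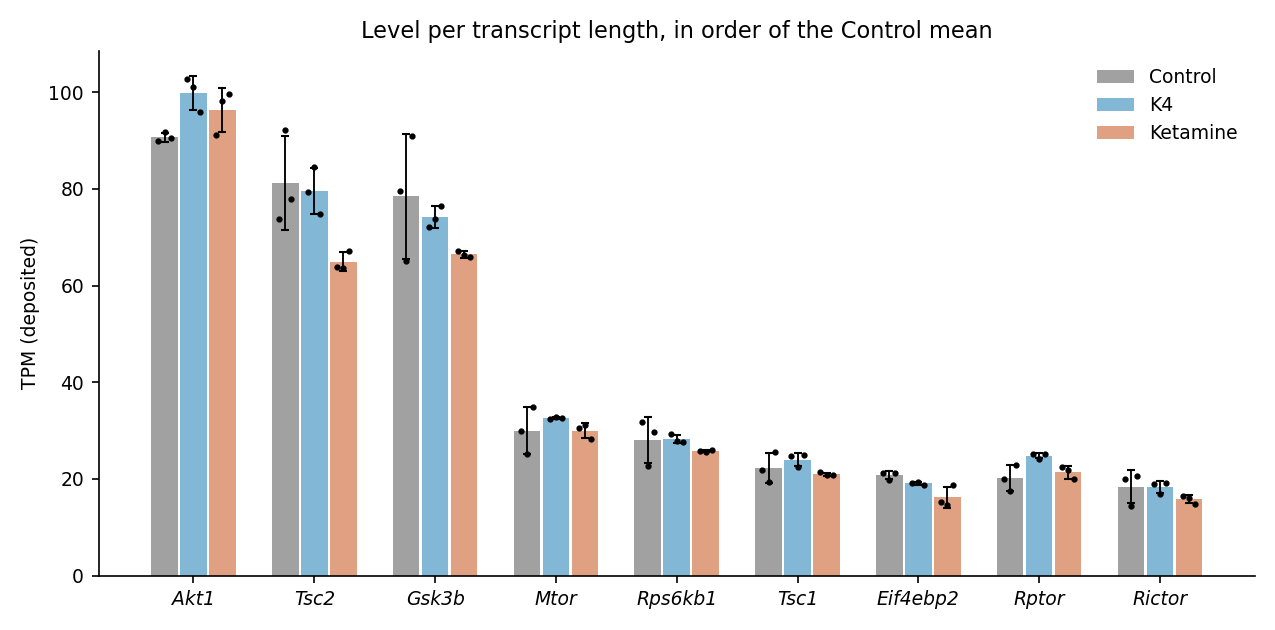
Deposited TPM (y axis) of the 9 genes (x axis, ordered by the Control mean) in Control, K4 and Ketamine; bars are group means, error bars are SD (n = 3 libraries) and points are single libraries. Akt1, Tsc2 and Gsk3b stand above the other 6 genes in each group, with Control means of 78.5 TPM or more against 30.0 TPM or less.

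Changes between groups were tested on counts, with edgeR's quasi-likelihood test fitted to all 18047 genes in all 9 libraries and Benjamini-Hochberg adjustment over all of them. A gene is called where the adjusted p is under 0.05. Against Control, 1 of the 9 genes was called in K4, Gsk3b, which was lower. Over all genes 6.07% were called in that comparison, 3.8% lower and 2.27% higher. In Ketamine 5 of the 9 were called and all 5 were lower: Gsk3b, Rictor, Eif4ebp2, Tsc1 and Tsc2. The shares over all genes there were 16.7% called, 9.75% lower and 6.95% higher. The median log2 fold change of the 9 genes was -0.16 in K4 and -0.24 in Ketamine, where the medians over all genes tested were -0.01 and -0.00. Both comparisons use the same 3 Control libraries.

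**Figure D2:**
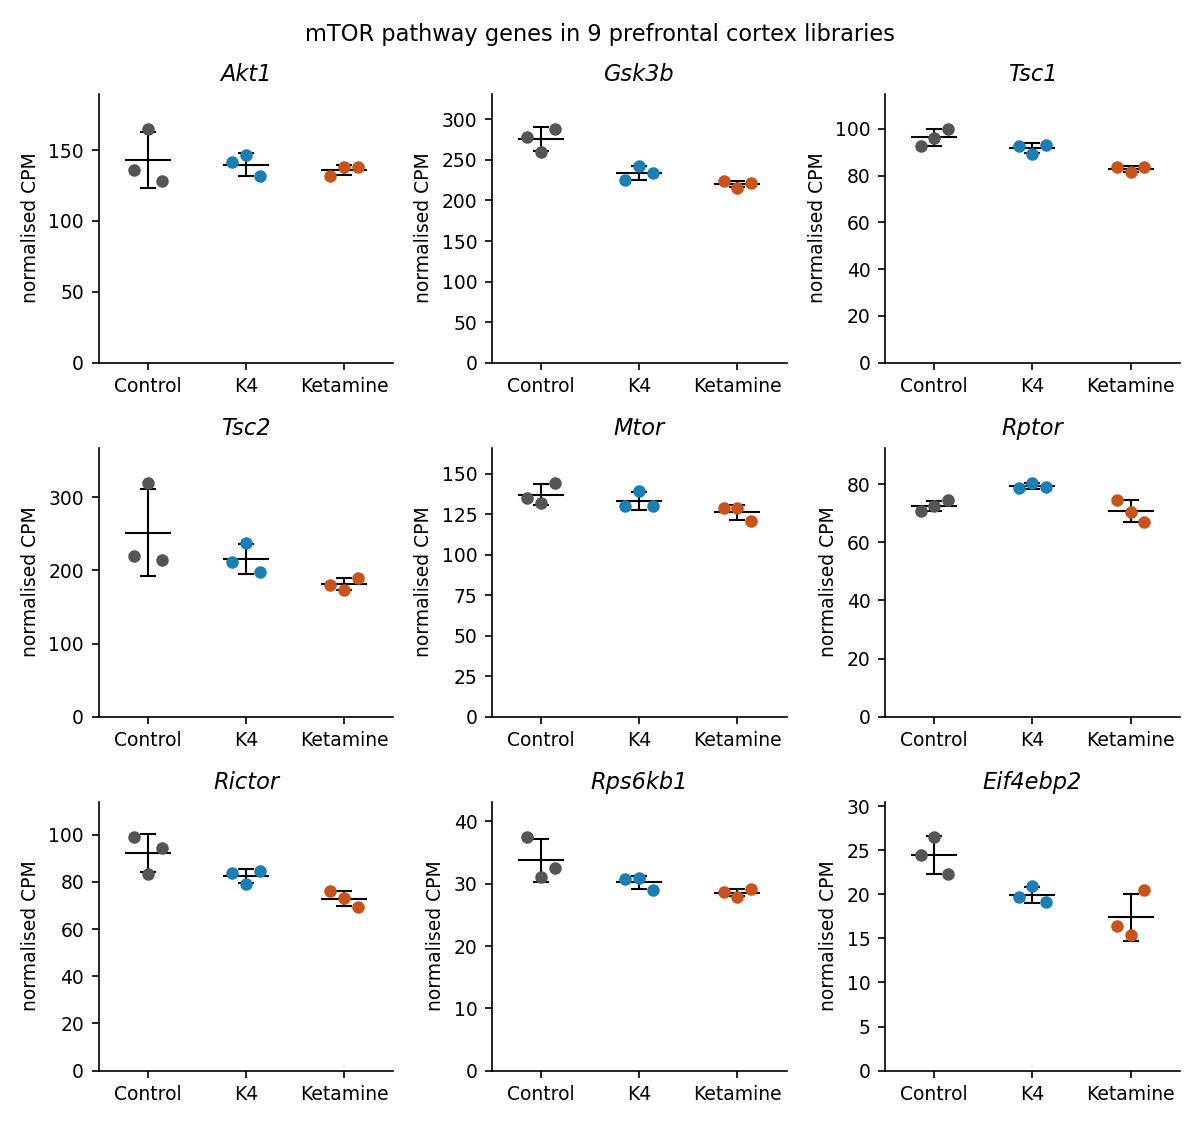
Normalised CPM (y axis, from 0 in each panel, with a scale of its own) of the 9 genes in the 9 libraries, grouped as Control, K4 and Ketamine on the x axis; points are libraries, long horizontal lines are group means and error bars are SD (n = 3). The 3 Ketamine libraries of Gsk3b, Rictor, Tsc1, Tsc2, Eif4ebp2, Mtor and Rps6kb1 lie below all 3 Control libraries. The K4 libraries of Gsk3b, Rps6kb1 and Eif4ebp2 do too. Over all genes this holds for 18.1% in Ketamine and 14.2% in K4.

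Of the upstream kinases, Gsk3b was called in both drug groups and Akt1 in neither; the difference between the 2 genes was not tested. Akt1 (NCBI gene 24185), which transmits the PI3K signal, had 135.7, 165.2 and 128.3 CPM in the Control libraries, 141.3, 146.8 and 131.4 in the K4 libraries, and 132.1, 138.2 and 138.4 in the Ketamine libraries. The groups overlapped, and Control 2 was the highest library. The log2 fold change was -0.03 (95% interval -0.21 to 0.15) in K4 and -0.07 (-0.25 to 0.11) in Ketamine, with edgeR adjusted p of 0.854 and 0.609. Gsk3b (gene 84027), a kinase inhibited by Akt, had 277.9, 259.8 and 288.6 CPM in the Control libraries, 225.8, 242.4 and 233.9 in the K4 libraries, and 223.4, 215.9 and 221.9 in the Ketamine libraries. All 6 drug libraries were below all 3 Control libraries, and the K4 and Ketamine libraries did not overlap either. Gsk3b fell by 0.24 on the log2 scale in K4 (95% interval -0.36 to -0.11; edgeR adjusted p = 0.0352) and by 0.32 in Ketamine (-0.45 to -0.20; edgeR adjusted p = 0.00338). The call in Ketamine held with each of the 9 libraries left out in turn. The call in K4 held only without Control 2 or Ketamine 1; without Control 1 or 3, any K4 library, Ketamine 2 or Ketamine 3 the edgeR adjusted p was above 0.05, up to 0.147. It was also lost with only the 2 groups compared (edgeR adjusted p = 0.0887), without the count filter (0.0508) and without mitochondrially encoded genes (0.0505).

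The 250 bases before the RefSeq start of Gsk3b (GRCr8, chr11:76153250-76153499, minus strand) and of Eif4ebp2 (GRCr8, chr20:29942923-29943172, minus strand) are printed 5′ to 3′, because these members had the smallest adjusted p among the long and among the short transcripts in Ketamine and their upstream sequences differ strongly in composition. Capitals mark matches, on either strand, to any of 5 short motifs. The GC box, which Sp1 binds, was searched as GGGCGG. The CCAAT box was searched with the letters of its name. The E-box was searched as CACGTG. The cAMP response element was searched as TGACGTCA, and the core of the TATA box was searched as TATAAA.
Gsk3b: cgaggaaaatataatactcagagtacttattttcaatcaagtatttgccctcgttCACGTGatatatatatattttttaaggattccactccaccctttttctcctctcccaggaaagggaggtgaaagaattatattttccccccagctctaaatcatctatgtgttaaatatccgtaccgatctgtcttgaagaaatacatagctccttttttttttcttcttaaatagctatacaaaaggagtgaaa
Eif4ebp2: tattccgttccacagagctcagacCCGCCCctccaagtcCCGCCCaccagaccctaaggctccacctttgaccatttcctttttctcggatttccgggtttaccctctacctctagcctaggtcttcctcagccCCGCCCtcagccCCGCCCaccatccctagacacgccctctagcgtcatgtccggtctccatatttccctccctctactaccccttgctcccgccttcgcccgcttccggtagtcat
The Gsk3b sequence was 34.4% G or C, lower than most promoters of the same length (5.52 percentile; median 51.2% over 33469 RefSeq promoters), and held 1 E-box, which 5.59% of promoters hold. The Eif4ebp2 sequence was 59.6% G or C and held 4 GC boxes, which 30.5% of promoters hold at least once. RefSeq promoters were found for 8 of the 9 genes. Among the other 6, GC boxes numbered 4 in Mtor, 4 in Rictor and 1 in Tsc2, and CCAAT occurred 3 times in Mtor; CCAAT is held by 34.0% of promoters. The Rictor sequence was 80.4% G or C, in the 99.1 percentile. None of the 8 held TGACGTCA or TATAAA, which 1.59% and 12.9% of promoters hold. A motif match describes letters in this window only, and the called members Gsk3b, Rictor, Tsc1, Tsc2 and Eif4ebp2 had no motif common to all 5 of them, GC boxes being found in Rictor, Tsc2 and Eif4ebp2.

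Tsc1 and Tsc2 encode the complex that restrains mTORC1. Tsc1 (gene 60445), which stabilises Tsc2, had 92.61, 96.19 and 100.1 CPM in the Control libraries, 92.77, 89.37 and 93.10 in the K4 libraries, and 83.53, 81.38 and 83.61 in the Ketamine libraries. The Ketamine libraries lay below all others, while K4 overlapped Control. Tsc1 fell by 0.22 on the log2 scale in Ketamine (95% interval -0.33 to -0.10; edgeR adjusted p = 0.0159), and its value in K4 was -0.07 (edgeR adjusted p = 0.47). Tsc2 (gene 24855), the subunit that switches Rheb off, had 220.2, 320.1 and 213.9 CPM in the Control libraries, 211.1, 237.7 and 198.2 in the K4 libraries, and 179.7, 173.8 and 190.2 in the Ketamine libraries. Control 2 stood far above the other libraries, K4 overlapped Control, and Ketamine lay below both. Tsc2 fell by 0.47 in Ketamine (95% interval -0.78 to -0.17; edgeR adjusted p = 0.0391). Without Control 2 the difference was smaller, -0.26, with an edgeR adjusted p of 0.0196. Both genes lost their calls without Ketamine 2 or Ketamine 3; Tsc1 also lost it without Control 3, and Tsc2 without K4 1 or Ketamine 1 (edgeR adjusted p up to 0.075 for Tsc1 and 0.123 for Tsc2). Tsc2 was also not called with only the 2 groups compared (edgeR adjusted p = 0.0512) or without the count filter (0.0632).

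Of the kinase and the 2 proteins that define its complexes, only Rictor was called. Mtor (gene 56718) had 134.8, 132.0 and 144.6 CPM in the Control libraries, 130.2, 139.6 and 130.0 in the K4 libraries, and 129.2, 128.7 and 120.9 in the Ketamine libraries. K4 overlapped Control, and Ketamine lay just below it. The log2 fold change was -0.04 (95% interval -0.17 to 0.09) in K4 and -0.12 (-0.25 to 0.01) in Ketamine, with edgeR adjusted p of 0.727 and 0.189. Rptor (gene 287871), the substrate-recruiting subunit of mTORC1, had 70.76, 72.46 and 74.43 CPM in the Control libraries, 78.88, 80.57 and 78.98 in the K4 libraries, and 74.57, 70.48 and 67.15 in the Ketamine libraries. K4 lay above every other library, and Ketamine overlapped Control. Rptor was the one member with a positive value in K4, 0.13 (95% interval 0.01 to 0.25; edgeR adjusted p = 0.179), and it was at -0.04 in Ketamine (edgeR adjusted p = 0.705). Rictor (gene 310131), the scaffold of mTORC2, had 99.16, 83.53 and 94.17 CPM in the Control libraries, 83.54, 79.08 and 84.69 in the K4 libraries, and 76.07, 73.08 and 69.55 in the Ketamine libraries. K4 overlapped only the lowest Control library, Control 2, and Ketamine lay below both other groups. Rictor fell by 0.34 on the log2 scale in Ketamine (95% interval -0.49 to -0.19; edgeR adjusted p = 0.00586), a call that held with each library left out in turn. Its K4 value was -0.16 (edgeR adjusted p = 0.172), and without Control 2 it was -0.23 and called (edgeR adjusted p = 0.0263).

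Rps6kb1 and Eif4ebp2 are the members that act on the translation machinery. Rps6kb1 (gene 83840), the S6 kinase that mTORC1 activates, had 37.56, 31.12 and 32.53 CPM in the Control libraries, 30.78, 30.92 and 28.97 in the K4 libraries, and 28.74, 27.89 and 29.11 in the Ketamine libraries. Both drug groups lay below all Control libraries, by a small margin to Control 2. Its log2 fold change was -0.16 (95% interval -0.33 to 0.01; edgeR adjusted p = 0.236) in K4 and -0.24 (-0.41 to -0.07; edgeR adjusted p = 0.0509) in Ketamine. DESeq2 called the latter with an adjusted p of 0.0418, as did edgeR without Control 2 (adjusted p = 0.0182). Eif4ebp2 (gene 361845) encodes the main 4E-BP of the brain, a repressor that holds eIF4E away from the mRNA cap until mTORC1 phosphorylates it. It had 24.48, 26.54 and 22.34 CPM in the Control libraries, 19.68, 20.90 and 19.15 in the K4 libraries, and 16.36, 15.42 and 20.43 in the Ketamine libraries. Both drug groups lay below Control, and Ketamine 3 stood apart from the other 2 Ketamine libraries at the level of K4. Eif4ebp2 fell by 0.49 on the log2 scale in Ketamine (95% interval -0.72 to -0.26; edgeR adjusted p = 0.00869), the lowest value of the 9 genes. Its K4 value was -0.30 (-0.53 to -0.07; edgeR adjusted p = 0.114). Without Ketamine 2 the Ketamine call was lost (edgeR adjusted p = 0.0549).

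Groups of CPM that did not overlap were counted beside the calls. In K4 against Control this held for 4 of the 9 genes, lower for Gsk3b, Rps6kb1 and Eif4ebp2 and higher for Rptor; over all genes 27.5% did not overlap, 14.2% lower and 13.3% higher. In Ketamine against Control it held for 7 of the 9, all lower; over all genes 35% did not overlap, 18.1% lower and 16.9% higher. The 2 genes whose Ketamine and Control libraries overlapped were Akt1 and Rptor.

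**Figure D3:**
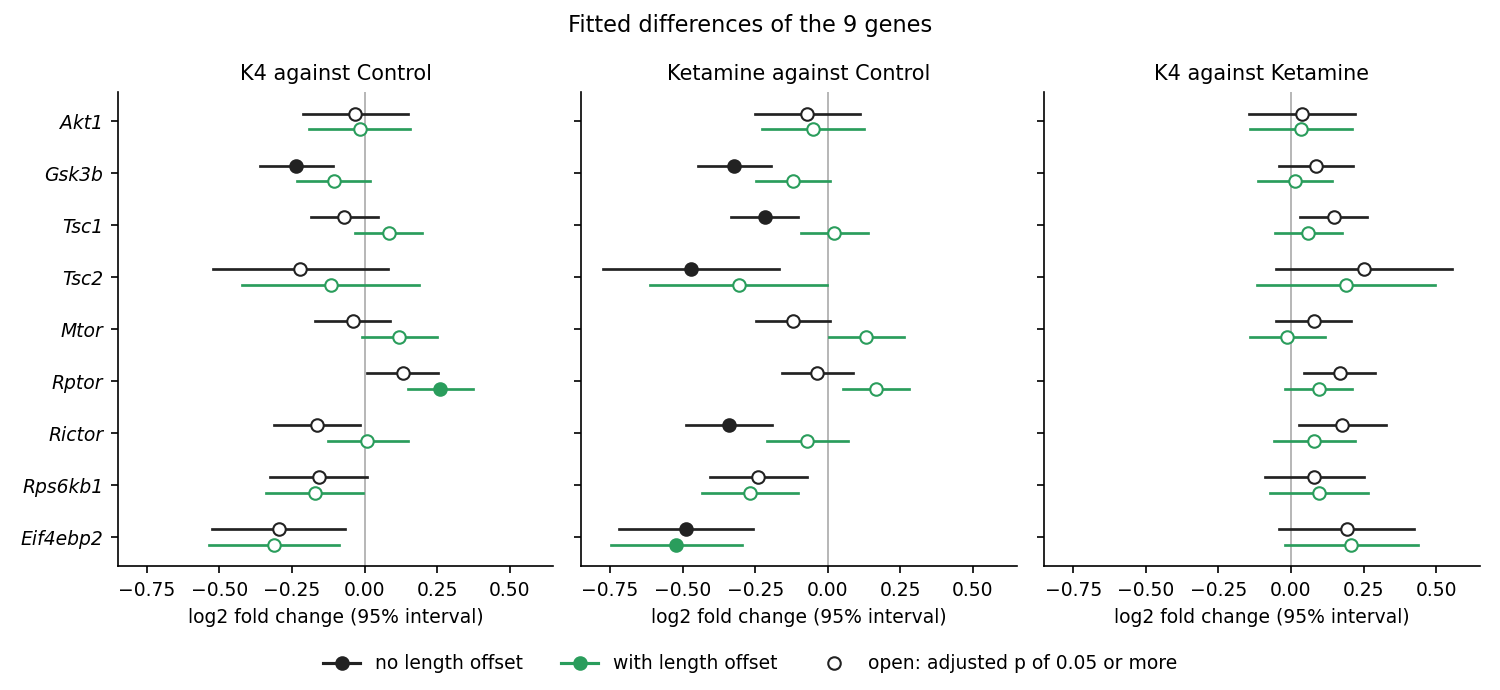
Log2 difference (x axis) of each of the 9 genes (y axis) in the 3 comparisons, with the 95% interval; black shows the fit without and green the fit with the length offset, and filled markers were called. Without the offset 8 of 9 values lie below 0 in K4 against Control and 9 of 9 in Ketamine against Control. Over all genes 50.7% and 50.3% lie below 0. With the offset the medians of the 9 genes are -0.02 and -0.07.

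Most of these genes have long transcripts, and long transcripts as a class were lower in the drug groups. The length implied by the deposited counts and FPKM was 10.7 kb for Rictor, 9.74 for Mtor, 9.13 for Tsc1, 7.66 for Rptor, 7.60 for Gsk3b and 6.45 for Tsc2, against a median of 2.93 kb over all genes tested. Akt1 was at 3.34 kb, Rps6kb1 at 2.55 and Eif4ebp2 at 2.49. At the length of Rictor the trend over all genes was -0.17 in K4 and -0.27 in Ketamine on the log2 scale. Rictor itself was at -0.16 in K4, close to the trend, and at -0.34 in Ketamine, below it. At the length of Eif4ebp2 the trend was 0.02 and 0.03. A second fit took each library's trend with length as an offset. In it the median of the 9 genes was -0.02 in K4 and -0.07 in Ketamine. Only Eif4ebp2 was called in Ketamine (log2 fold change -0.52, edgeR adjusted p = 0.0118), where 7.74% of all genes were called. The other 4 lost their calls: Rictor was at -0.07 (edgeR adjusted p = 0.554), Gsk3b at -0.12 (0.24) and Tsc2 at -0.31 (0.209), and Tsc1 changed sign to 0.02 (0.844). In K4 Gsk3b lost its call (-0.11, edgeR adjusted p = 0.339) and Rptor, the one called, was higher at 0.26 (edgeR adjusted p = 0.0263), where 2.39% of all genes were called. Rptor kept that call in 5 of 9 fits with a library left out; it was lost without Control 1 or without any of the 3 K4 libraries. Eif4ebp2 kept its call in 8 of 9, losing it without Ketamine 2 (edgeR adjusted p = 0.0753).

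**Figure D4:**
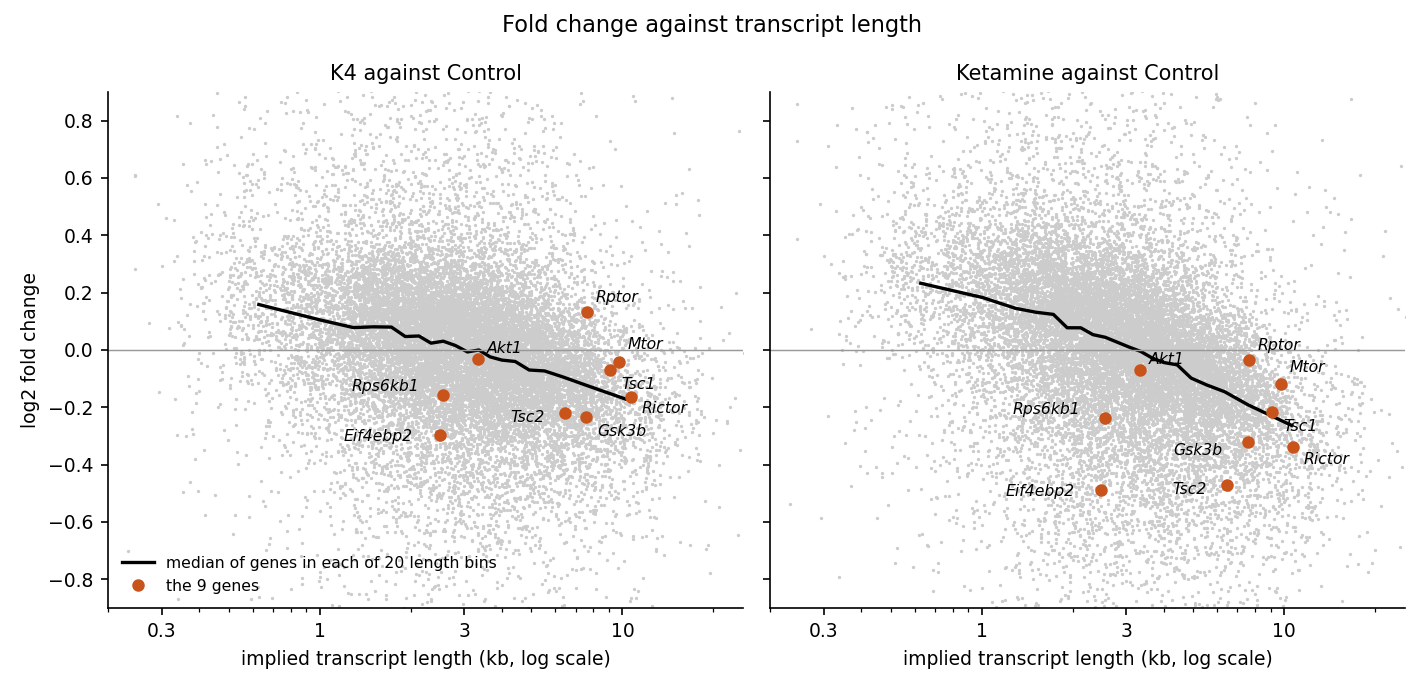
Log2 fold change (y axis) against implied transcript length (x axis, log scale) for all tested genes within the plotted range (grey), with the median in each of 20 length bins (line) and the 9 genes (orange), in K4 and Ketamine against Control. The line falls with length in both panels; Rictor lies near it in K4, and Eif4ebp2 lies far below it in both.

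On the deposited TPM the same genes sat differently against Control. In limma on log2(TPM + 1), the median log2 fold change was 0.16 in K4 and 0.12 in Ketamine over genes with a mean TPM of at least 1. Without that filter it was 0.07 and 0.04. This fit differs from the main one in test, unit and filter as well as scaling, and the part of each was not tested. Relative to a zero that was not shifted, limma on log2(TPM + 1) gave positive K4 values for Mtor (0.13), Rictor (0.01), Tsc1 (0.11), Rps6kb1 (0.03) and Akt1 (0.14), whose K4 values on counts were negative, and positive Ketamine values for Mtor (0.01), Rptor (0.09) and Akt1 (0.08). The 5 genes called in Ketamine stayed negative on this scale, and Eif4ebp2 alone was called (-0.35, limma adjusted p = 0.0479). Eif4ebp2 TPM was 21.29, 19.83 and 21.15 in the Control libraries, 19.25, 19.31 and 18.80 in the K4 libraries, and 15.15, 14.66 and 18.71 in the Ketamine libraries. These 3 groups did not overlap. Gsk3b TPM, by contrast, spread from 65.09 to 90.86 in Control and overlapped both drug groups, which were at 72.05 to 76.55 and 65.86 to 67.15.

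K4 and Ketamine were then set against each other. None of the 9 genes, and 0% of all genes tested, passed edgeR's adjusted p; 1648 genes had an unadjusted p under 0.05, and DESeq2 called 66. All 9 values were higher in K4 than in Ketamine, while 49.5% of all genes were lower in K4. The median of the 9 was 0.15 where all genes had 0.00, and 6 of 9 did not overlap. Over all genes 17.8% did not overlap, 9.49% higher and 8.29% lower in K4. The difference was 0.17 for Rptor (95% interval 0.05 to 0.29; edgeR adjusted p = 0.406), 0.18 for Rictor (0.03 to 0.33; 0.486) and 0.15 for Tsc1 (0.03 to 0.26; 0.456). For Tsc2 it was 0.25 (-0.05 to 0.55; edgeR adjusted p = 0.626), for Eif4ebp2 0.19 (0.631), for Gsk3b 0.09 (-0.04 to 0.21; 0.694) and for Akt1 0.04 (-0.14 to 0.22; 0.925). With the length offset the median difference was 0.08, and Mtor changed sign to -0.01. The intervals therefore allow differences of up to 0.33 for Rictor and 0.55 for Tsc2, and the drugs were not shown to act alike on these genes. Doses are not given and the routes differed. The summed oligodendrocyte, astrocyte, endothelial and microglial markers were also higher in every K4 library than in every Ketamine library, and their part in these differences was not tested.

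The wider pathway was described with 10 lists of 120 genes, the 9 members included, all of which were tested. In K4 1 gene was higher and 11 were lower (10% called). In Ketamine 9 were higher and 23 lower (26.7% called). Without the 9 members the shares were 9.91% and 24.3% of 111 genes, beside 6.07% and 16.7% over all genes. The median log2 fold change of the 120 was -0.03 in K4 and -0.06 in Ketamine. With the length offset the calls numbered 5 in K4 and 8 in Ketamine, which is 4.17% and 6.67% of the 120, beside 2.39% and 7.74% over all genes; the Ketamine share was then below that of all genes. Without Ketamine 2 the Ketamine count fell to 13, and without K4 3 the K4 count fell to 3.

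**Figure D5:**
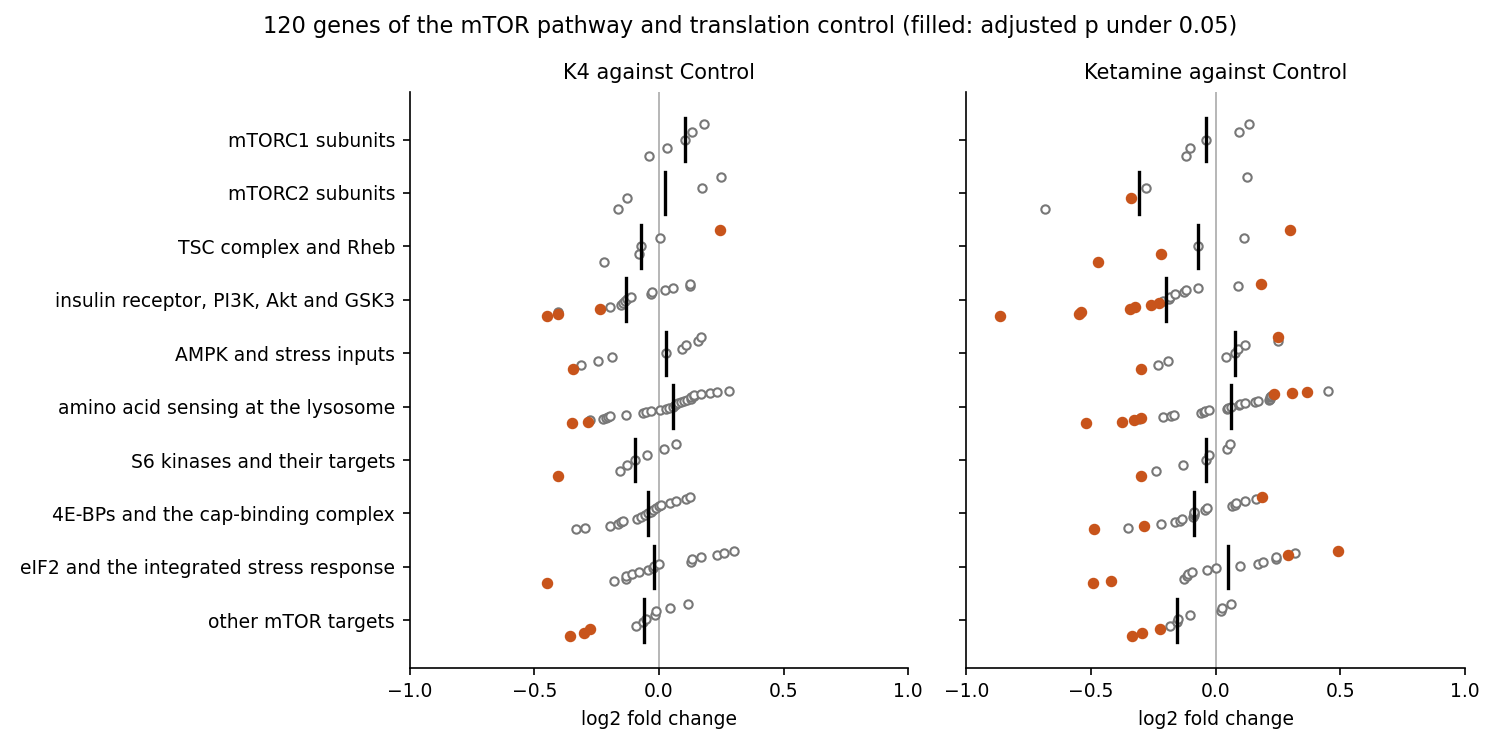
Log2 fold change (x axis) of the 120 pathway genes in 10 lists (y axis), in K4 and Ketamine against Control; filled orange points were called, open points were not, and the vertical bar is the list's median. Calls to the left of 0 outnumber those to the right, 11 to 1 in K4 and 23 to 9 in Ketamine. Over all genes tested, lower calls also outnumber higher ones, 686 to 409 in K4 and 1759 to 1254 in Ketamine.

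The insulin receptor, PI3K, Akt and GSK3 list held the most calls of the lists in Ketamine, 1 higher and 7 lower of 16 (50%, beside 16.7% over all genes), with 0 higher and 3 lower in K4 (18.8%, beside 6.07%). The median implied length of the list was 5.79 kb, and with the length offset it held 3 calls in Ketamine and 2 in K4, all lower (18.8% and 12.5%, beside 7.74% and 2.39% over all genes). Akt2, a paralogue of Akt1, was at -0.03 in K4 and -0.12 in Ketamine and was not called in either. Irs1, an adaptor of the insulin receptor, had 8.87, 8.40 and 9.30 CPM in Control and 5.32, 4.77 and 4.48 in Ketamine, and fell there by 0.87 (edgeR adjusted p = 0.00314). Grb10, an adaptor that dampens insulin signalling, fell by 0.36 in K4 (edgeR adjusted p = 0.00855) and by 0.30 in Ketamine, and was not called in either with the offset. Gsk3a, the paralogue of Gsk3b, rose by 0.18 in Ketamine (edgeR adjusted p = 0.0368, 0.193 with the offset) and was at 0.13 in K4; that call was lost in 6 of the 9 fits with a library left out, where the edgeR adjusted p reached 0.132.

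In the list of the Tsc complex and Rheb, of 5 genes, 1 was higher and 0 lower in K4 (20%, beside 6.07% over all genes). In Ketamine 1 was higher and 2, Tsc1 and Tsc2, were lower (60%, beside 16.7%). With the length offset 0 were called in either. The gene called higher was Rheb. Rheb, the GTPase that activates mTORC1, had 88.09, 82.88 and 87.81 CPM in the Control libraries, 98.11, 104.2 and 104.3 in the K4 libraries, and 104.5, 110.0 and 103.9 in the Ketamine libraries. All drug libraries were above all Control libraries. It rose by 0.24 on the log2 scale in K4 (edgeR adjusted p = 0.0258) and by 0.30 in Ketamine (edgeR adjusted p = 0.00383); with the length offset it was at 0.15 in both and not called (0.149 and 0.122). Rheb has a short transcript, 1.23 kb by implied length, and the trend at short lengths was positive. The K4 call of Rheb was lost without Control 1 or any K4 library (edgeR adjusted p up to 0.0996). Among the mTORC1 subunits, 0 of 5 were called in K4 and in Ketamine, beside 6.07% and 16.7% over all genes. Mlst8, shared by both complexes, was at 0.18 and 0.14, and the inhibitor Deptor at 0.03 and -0.10. Of the 4 mTORC2 subunits Rictor alone was called, in Ketamine (25%, beside 16.7% over all genes).

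Among AMPK and stress inputs, amino acid sensing and other mTOR targets, lists of 9, 29 and 10 genes, the calls in K4 were all lower and numbered 1, 2 and 3 (11.1%, 6.9% and 30%, beside 6.07% over all genes). In Ketamine the calls were 1 higher and 1 lower, 3 higher and 4 lower, and 0 higher and 3 lower (22.2%, 24.1% and 30%, beside 16.7%). With the length offset 1 gene of these lists was called in each comparison, Hif1a in K4 and Sesn3 in Ketamine. Sesn3, a sestrin that restrains mTORC1, fell by 0.35 in K4 (edgeR adjusted p = 0.0145) and by 0.52 in Ketamine (edgeR adjusted p = 0.000641). Hif1a, a transcription factor whose synthesis mTORC1 promotes, fell by 0.28 and 0.22 (edgeR adjusted p = 0.0135 in each). Lamtor4, a subunit of the lysosomal Ragulator scaffold, rose by 0.37 in Ketamine (edgeR adjusted p = 0.00761). Prkag1, a regulatory subunit of AMPK, rose by 0.25 there (edgeR adjusted p = 0.0121). With the offset the called values were smaller, -0.27 for Sesn3 in Ketamine (edgeR adjusted p = 0.0209) and -0.22 for Hif1a in K4 (0.0461). Leaving out Control 1, K4 2 or K4 3 ended the K4 calls of Sesn3 and Hif1a (edgeR adjusted p up to 0.0714 and 0.0764), and leaving out Control 1 or Ketamine 2 that of Hif1a in Ketamine (0.0661). Prkag1 lost its call without Ketamine 2 or 3 (edgeR adjusted p up to 0.0561). Ddit4, a stress-induced inhibitor of mTORC1, was at -0.19 in both comparisons, with 95% intervals from -0.81 to 0.43.

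On the side of translation, 1 of 7 genes in the S6 kinase list was called in K4 and in Ketamine (14.3%, beside 6.07% and 16.7% over all genes). In both it was Eef2k, the kinase that slows elongation by phosphorylating eEF2. It had 30.96, 37.90 and 37.50 CPM in the Control libraries, 27.61, 25.33 and 27.45 in the K4 libraries, and 28.50, 27.96 and 30.03 in the Ketamine libraries. It fell by 0.40 in K4 (edgeR adjusted p = 0.0187) and by 0.30 in Ketamine (edgeR adjusted p = 0.0288), and kept both calls with the length offset; the K4 call was lost without any 1 of the K4 libraries (edgeR adjusted p up to 0.069), and the Ketamine call without Control 2, Control 3 or any 1 of the Ketamine libraries (up to 0.11). Rps6kb2, the other S6 kinase, was at 0.07 and -0.03. Of 19 genes of the 4E-BPs and the cap-binding complex, 0 were called in K4, and 1 was higher and 2 lower in Ketamine. The shares were 0% and 15.8%, beside 6.07% and 16.7% over all genes. Eif4ebp1, the paralogue of Eif4ebp2, was low at 6.25, 4.95 and 4.88 CPM in the 3 group means and was at -0.33 in K4 and -0.35 in Ketamine, with 95% intervals that include 0. In the list of eIF2 and the integrated stress response, of 16 genes, 6.25% were called in K4 and 25% in Ketamine, beside 6.07% and 16.7% over all genes. Its members Atf4 and Ddit3, a pair of stress-response transcription factors, rose in Ketamine by 0.29 (edgeR adjusted p = 0.0115) and 0.49 (edgeR adjusted p = 0.00678). Ppp1r15b, which helps to reverse eIF2 phosphorylation, fell by 0.45 in K4 (edgeR adjusted p = 0.0145) and by 0.49 in Ketamine (edgeR adjusted p = 0.00309). Of these 3 genes only Ppp1r15b was called with the offset, in Ketamine (-0.34, edgeR adjusted p = 0.041). The list's other call with the offset in Ketamine, Eif2s2, which encodes a subunit of eIF2 and is named here after its value was seen, was at -0.12 without the offset (edgeR adjusted p = 0.157) and -0.22 with it (0.0281). The K4 call of Ppp1r15b was lost without Control 1, K4 1 or K4 3 (edgeR adjusted p up to 0.068). Atf4 lost its call without Ketamine 2 or 3 (edgeR adjusted p up to 0.0587).

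The genes whose pattern over the 9 libraries was most like that of Mtor were Sorcs1, Ccp110 and Prdm2. The measure was the root mean square difference in log2 CPM after centring each gene on its own mean, over 10829 candidates, and it was 0.0263, 0.0288 and 0.03. All 3 are longer than the median gene, at 6.94, 5.84 and 8.51 kb by implied length, and none was called in any comparison. Of the other members Tsc1 was nearest to Mtor, at rank 576 with 0.0708, and Rptor followed at rank 914 with 0.0788. Tsc2 was the farthest at 0.233, with Eif4ebp2 at 0.22. The measure does not scale a gene to its own spread, and Mtor varied little, with centred values from -0.127 to 0.131. A gene that varies little therefore lies near Mtor, and a gene that varies more lies farther, so nearness need not mean a shared pattern.

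Reads of overlapping genes may add to these values, since the strand setting of the counting is not given in the sources used here. In the RefSeq table Tsc2 overlaps Pkd1, Rps6kb1 overlaps Rnft1, Mtor overlaps Angptl7 and LOC120103237, and Gsk3b overlaps Nr1i2 and LOC120095744. No gene there overlaps Rptor, Rictor, Tsc1, Eif4ebp2 or Akt1.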

How the data were processed

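Poly(A)-selected, stranded RNA libraries (TruSeq Stranded mRNA, per the labels' protocols) of 9 mPFC samples were sequenced. The submitters' processing notes name bcl2fastq 2.20.0, Trimmomatic (no version), HISAT2 2.1.0, StringTie 2.1.3b and genome build rn6, without order or role. The unit tested is the raw read count per gene, as the authors deposited it; its counting tool and strand setting: not given in the sources used here. FPKM and TPM per gene and library were also deposited by the authors, per the file headers. No coordinates come with them.

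The main test was edgeR 4.0.16 (R 4.3.3): TMM scaling, genes kept by filterByExpr (minimum count 10, minimum total 15), 1 robust quasi-likelihood fit of 3 groups over 9 libraries, Benjamini-Hochberg adjustment over 18047 genes, threshold 0.05. Standard errors and 95% intervals come from that fit. CPM are TMM-normalised. Implied transcript length is the median over libraries of what counts and FPKM give together; it depends on the authors' gene models. The length offset is each library's lowess trend of log2 CPM deviation on log2 of that length. Alternatives were other scalings, DESeq2 1.42.0, limma 3.58.1 on log2(TPM + 1) or log2(TPM + 0.1), no filter, only the groups compared, the replicate number as a block, the length offset and each library left out; the length offset with each library left out was added after seeing the data. No 2 libraries were identical. The scripts were tested on simulated data. Promoter sequences are RefSeq's for GRCr8, matched by gene ID.

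All members are named. Of the pathway lists, up to 5 called genes per direction and comparison with the smallest p are named, with a set of paralogues and partners (Akt2, Gsk3a, Rps6kb2, Eif4ebp1, Mlst8, Rheb, Deptor, Ddit4, Eef2k) and the 3 genes most like Mtor; some genes that this rule takes are not reported here. The members, lists and rules were chosen with earlier results of these data known, so the counts are descriptions of these lists.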

Additional observations from a re-analysis of the deposited data

How the results depend on the processing

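The number of the 9 genes called in K4 against Control (1) was 0 without mitochondrially encoded genes, without a count filter, with only the 2 groups compared and in all 3 limma fits, and ranged from 0 to 2 with a library left out; with the length offset and a library left out it ranged from 0 to 1. In Ketamine against Control the number (5) was 1 with the length offset, with or without the block, 1 by limma on log2(TPM + 1) or log2(TPM + 0.1) and 0 by limma without a filter; it ranged from 2 to 6 with a library left out (2 without Ketamine 2) and from 0 to 2 when the offset was used as well. In K4 against Ketamine it was 0 under each alternative run. Tsc1 in Ketamine reversed with the length offset (0.023, and 0.023 with the block too). With the offset and a library left out it was 0.026 without Control 2, 0.046 without Control 3, 0.023, 0.022 and 0.023 without K4 1, 2 and 3, and 0.048, 0.017 and 0.003 without Ketamine 1, 2 and 3, none of them called; without Control 1 it was -0.004 and also not called. Pathway genes called in K4 (12) were 7 with only the 2 groups, 5 with the offset, 4 with the offset and block, 6, 6 and 0 by limma, and 3 to 15 with a library left out. In Ketamine (32) they were 8 with the offset, 9 with the offset and block, 15, 15 and 5 by limma, and 13 to 31 with a library left out. Over all genes, the K4 count (1095) was 1883 by DESeq2, 452 with only the 2 groups, 432 with the offset, 502 with the offset and block, 1 by limma without a filter, and 174 to 1548 with a library left out. The Ketamine count (3013) was 1397 with the offset, 1389 with the offset and block, 1840, 1837 and 537 by limma, and 1177 to 3191 with a library left out. The K4 against Ketamine count (0) was 66 by DESeq2, 6 without a filter, 27 with only the 2 groups, 1 with the block, 1 with the offset and block, 2, 2 and 1 by limma, and 0 to 27 with a library left out. The cause was not tested, except that fewer samples enter the fits that leave a library or group out. The share of calls that were higher moved with upper quartile scaling from 37.4% to 48.3% in K4 and from 41.6% to 50.6% in Ketamine. It was 92.6% and 77.1% by limma on log2(TPM + 1), which changes the test, the unit and the filter as well as the scaling.

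The labels do not say whether libraries with the same replicate number share an animal, litter or day. The correlations of their deviations were 0.002 to 0.106, against -0.157 to 0.069 for libraries with different numbers, and 7 of 9 libraries correlated best with a library of their own number. With the number as a block, 1, 5 and 0 members, 12, 34 and 0 pathway genes, and 1168, 3191 and 1 genes overall were called in K4 against Control, Ketamine against Control and K4 against Ketamine. The members had 433 to 12314 counts a library; whether depth or the spread between the 3 libraries of a group limited the calls was not tested.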
